A study of Mus musculus with 6 samples.

Results

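The genes examined here are 10 genes of the cytosolic DNA and RNA sensing pathways, namely Cgas, Tmem173 (STING), Trex1, Ddx58 (RIG-I), Ifih1 (MDA5), Dhx58 (LGP2), Tlr3, Mavs, Tbk1 and Irf3. They were selected by gene symbol, and all 10 were found among the 55536 genes of the deposited count table, where Cgas is listed as Mb21d1. A filter on low counts (filterByExpr of edgeR) kept 15374 genes and 9 of the 10 members. Each of these 9 had at least 23 counts in every library, whereas Trex1 had 0 counts in all 6.

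Cells detect misplaced or foreign nucleic acid with a small set of receptors. In the cytosol, cGAS binds double-stranded DNA and makes a cyclic dinucleotide that activates STING, while RIG-I and MDA5 bind viral or otherwise abnormal RNA and signal through MAVS. Both routes converge on the kinase TBK1 and the transcription factor IRF3, which switch on type I interferon genes. In tumors, DNA released after damage by drugs such as doxorubicin is a known trigger of the STING route.

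RNA from the tumors of 3 untreated control mice (Control 5, 6 and 7) was compared with that of 3 mice given nanoparticles loaded with GOX and DOX (GOX_DOX 1, 2 and 5). In both groups HCA-1 cells, a murine HCC line, had been implanted under the liver capsule of male C3H mice (C3H/HeNCrNarl in the study's methods) aged 6–8 weeks, whose immune system is intact. GOX is glucose oxidase, an enzyme that consumes glucose and forms peroxide, and DOX is doxorubicin, an anthracycline that damages DNA. The labels give intravenous dosing on days 18, 19 and 20, yet place the transcriptome analysis on day 17 after 3 h of circulation, so that these labels leave the interval between dosing and sampling unsettled. The study's methods place the harvest of tumor RNA after the last dose, in a paragraph on RT-qPCR, and give no day for the sequenced RNA. Neither group compared here had empty particles or a single agent, and effects of GOX, DOX and carrier cannot be told apart.

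Library totals lay between 15529940 and 18401178 counts. Levels are given as CPM, which are counts scaled to library size and adjusted by TMM factors from edgeR, and 3 counts correspond to 0.132–0.323 CPM. The control libraries stood apart from each other. Over the filtered genes (not independent of each other), the correlation of log2 CPM (Pearson's r) of control 5 was 0.966–0.975 with the GOX_DOX libraries, but 0.730 and 0.659 with controls 6 and 7. Whether sampling or labelling differed among the controls was not tested, and every fold change below carries this doubt. The summed level of 14 hepatocyte markers was 138360 and 227099 CPM in controls 6 and 7, but 729 CPM in control 5 and between 1550 and 3838 CPM in the GOX_DOX libraries. Among markers of liver cancer, Afp lay between 2.25 and 13.2 CPM and Gpc3 between 0.784 and 2.29 CPM in all libraries, whereas the keratin gene Krt8 lay between 313 and 540.5 CPM. Spp1 of the same list was at 6838 CPM in control 5 and 4589–6936 CPM in GOX_DOX libraries, but at 463 and 178 CPM in controls 6 and 7. Each member is therefore described by library, and results are given with and without control 5. In bulk tumor RNA, fewer cells of a type and less RNA per cell cannot be told apart.

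The promoters of 8 of the 10 members were present in the RefSeq promoter sequences (GRCm38.p6, 250 bases before to 50 after the start). They are shown because interferon itself controls several sensor genes, through the element searched for here. The letters GAAA, then any 2 bases, then GAAA, the core of the interferon-stimulated response element, were searched on both strands and are in capitals. Ddx58 at chr4:40239776-40240075 and Ifih1 at chr2:62646206-62646505, both on the minus strand, each held 1 match. Mavs at chr2:131233813-131234112 and Irf3 at chr7:44997398-44997697, both on the plus strand, held none, and are shown as the adaptor and transcription factor with the largest excess in controls 6 and 7.
Ddx58: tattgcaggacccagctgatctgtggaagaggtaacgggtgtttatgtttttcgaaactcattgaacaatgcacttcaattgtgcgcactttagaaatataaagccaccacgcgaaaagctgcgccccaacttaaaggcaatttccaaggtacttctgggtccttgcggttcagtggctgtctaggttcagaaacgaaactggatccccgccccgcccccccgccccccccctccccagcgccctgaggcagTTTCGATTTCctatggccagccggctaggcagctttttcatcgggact
Ifih1: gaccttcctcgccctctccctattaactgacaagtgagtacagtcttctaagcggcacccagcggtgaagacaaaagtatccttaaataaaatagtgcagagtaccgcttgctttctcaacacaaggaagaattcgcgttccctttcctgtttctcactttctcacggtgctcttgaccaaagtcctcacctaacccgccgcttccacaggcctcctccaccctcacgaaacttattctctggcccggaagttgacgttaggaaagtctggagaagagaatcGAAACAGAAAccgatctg
Mavs: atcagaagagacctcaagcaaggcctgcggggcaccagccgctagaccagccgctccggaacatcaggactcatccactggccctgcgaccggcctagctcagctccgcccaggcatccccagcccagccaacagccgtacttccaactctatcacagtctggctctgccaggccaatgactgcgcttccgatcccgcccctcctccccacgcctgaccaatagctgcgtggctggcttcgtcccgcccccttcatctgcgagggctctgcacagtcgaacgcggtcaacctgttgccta
Irf3: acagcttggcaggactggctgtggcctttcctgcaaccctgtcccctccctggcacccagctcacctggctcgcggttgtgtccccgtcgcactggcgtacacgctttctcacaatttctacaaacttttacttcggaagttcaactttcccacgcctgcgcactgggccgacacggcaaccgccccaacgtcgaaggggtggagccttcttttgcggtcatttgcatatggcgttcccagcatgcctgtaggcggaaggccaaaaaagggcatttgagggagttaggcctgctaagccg
The Ifih1 match lay at bases 33 to 42 after the start, on the coding strand, and the Ddx58 match at bases 3 to 12, on the opposite strand. Of all 32851 promoters of this length, 3.44% held this core. The gamma-activated site core TTCNNNGAA was found in 0 of the 8 members and in 8.3% of all promoters. The Trex1 entries held 7 and 5 CpG dinucleotides in this window, and the other members with an entry between 10 and 37, against a median of 7 over all promoters. As many CpG as in Tbk1, the member with 37, were found in 5.58% of all promoters. For the other members apart from Trex1 this share was between 28.1% (Mavs) and 43.5% (Tlr3).

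The DNA sensor gene and the STING gene were both lowest in controls 6 and 7. Cgas (ENSMUSG00000032344, chromosome 9, 78430526 to 78443237 on GRCm38) encodes the DNA sensor that makes the STING ligand. Its level was 10.9, 4.07 and 2.48 CPM in controls 5, 6 and 7, against 10.9, 8.96 and 9.89 CPM in GOX_DOX 1, 2 and 5. Controls 6 and 7 were below every GOX_DOX library, whereas control 5 lay at their upper end, so that the groups overlapped. The mean was 5.81 ± 4.46 CPM (SD, n = 3) in control and 9.91 ± 0.955 CPM (SD, n = 3) in GOX_DOX tumors. The log2 fold change was 0.76 (SE 0.56), with a Benjamini-Hochberg adjusted p of 0.476 in the quasi-likelihood test of edgeR, which is the test meant by edgeR from here on.

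Tmem173 (ENSMUSG00000024349) encodes STING, the membrane protein of the endoplasmic reticulum that cGAS activates. It showed 26.9, 12.1 and 6.99 CPM in controls 5, 6 and 7, against 24.1, 33.4 and 28.3 CPM in GOX_DOX 1, 2 and 5. The order of the libraries was like that of Cgas, with controls 6 and 7 lowest and control 5 within the GOX_DOX range. The log2 fold change was 0.89 (SE 0.50, edgeR adjusted p = 0.377). Sensor and adaptor kept a similar proportion, since the number of Cgas counts per Tmem173 count was 0.336–0.405 in the control libraries and 0.269–0.452 in the GOX_DOX libraries.

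Trex1 (ENSMUSG00000049734, chromosome 9, 109057933 to 109059734) encodes the exonuclease that removes cytosolic DNA before cGAS meets it. It was listed at 0 counts in all 6 libraries. In the GENCODE M21 annotation, 100% of its exonic bases also belong to exons of Atrip, a DNA damage signalling gene on the same strand. Among protein-coding genes so placed, 132 of 141 had 0 counts in all libraries, against 15.5% of the 20266 genes that share no exonic base on their strand. How reads over shared bases were counted is not given in the sources used here, and the 0 sets no upper limit on Trex1 RNA. Atrip lay between 8.18 and 12.5 CPM in the 6 libraries, with a log2 fold change of -0.01 (SE 0.26).

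**Figure D1:**
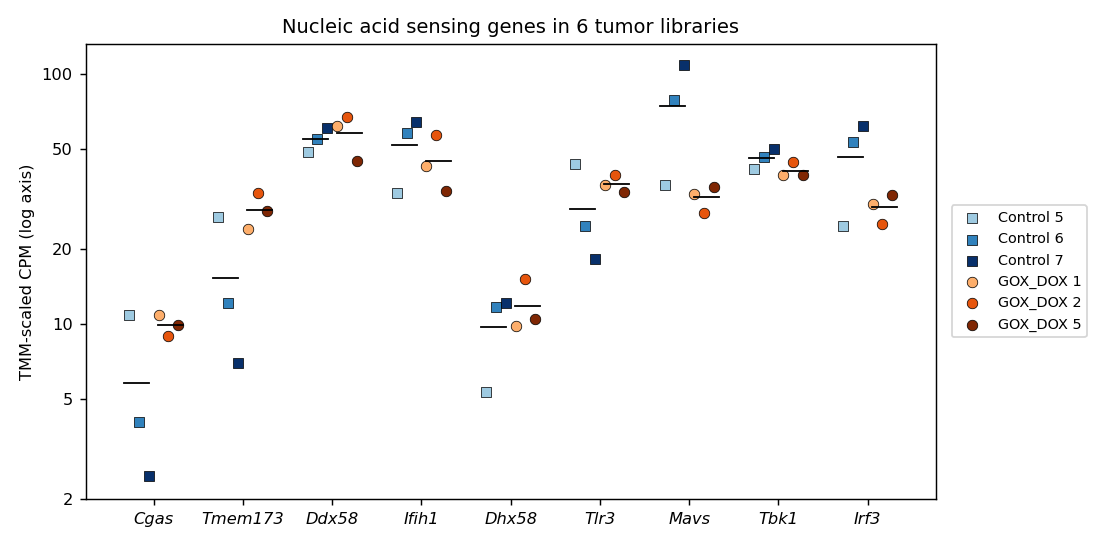
TMM-scaled CPM (log axis) of the 9 members with counts in the 3 control libraries (squares) and the 3 GOX_DOX libraries (circles), with group means as bars. Control 5 sits with the GOX_DOX libraries for Cgas, Tmem173, Tlr3, Mavs and Irf3, while controls 6 and 7 lie below them for the first 3 genes and above them for Mavs and Irf3. Controls 6 and 7 also lie above the GOX_DOX libraries for Ifih1 and Tbk1, by less.

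None of the 3 RNA helicases separated the groups. Ddx58 (ENSMUSG00000040296, chromosome 4, 40203773 to 40239828) encodes RIG-I, which recognises RNA with a 5′ triphosphate. Its level was 49.0, 55.2 and 60.8 CPM in controls 5, 6 and 7, against 61.9, 67.2 and 44.7 CPM in GOX_DOX 1, 2 and 5. All 3 controls lay inside the GOX_DOX range, and the log2 fold change was 0.08 (SE 0.23, edgeR adjusted p = 0.851).

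Ifih1 (ENSMUSG00000026896, chromosome 2, 62595798 to 62646255) encodes MDA5, which recognises long double-stranded RNA. It showed 33.6, 58.2 and 64.1 CPM in controls 5, 6 and 7, against 43.1, 57.3 and 34.2 CPM in GOX_DOX 1, 2 and 5. The GOX_DOX libraries lay between control 5 and the other controls, with a log2 fold change of -0.21 (SE 0.33, edgeR adjusted p = 0.711). The sign was not stable, as the value was -0.41 (SE 0.24) without control 5 and 0.43 (SE 0.31) against control 5 alone.

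Dhx58 (ENSMUSG00000017830, chromosome 11, 100694884 to 100704271) encodes LGP2, a helicase without signalling domains that modulates the other RNA helicases. Its level was 5.35, 11.7 and 12.2 CPM in controls 5, 6 and 7, against 9.84, 15.1 and 10.5 CPM in GOX_DOX 1, 2 and 5. Control 5 was the lowest library, and the other controls lay within the GOX_DOX range. The log2 fold change was 0.28 (SE 0.39, edgeR adjusted p = 0.680). Against control 5 alone it was 1.16 (SE 0.37, edgeR adjusted p = 0.885), the largest difference of any member in that comparison.

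Tlr3 (ENSMUSG00000031639, chromosome 8, 45395665 to 45411080) encodes the endosomal receptor for double-stranded RNA, which signals through TRIF and not through MAVS. Its level was 43.6, 24.6 and 18.2 CPM in controls 5, 6 and 7, against 36.2, 39.4 and 33.9 CPM in GOX_DOX 1, 2 and 5. As for Cgas, controls 6 and 7 were the lowest libraries and control 5 was the highest. The log2 fold change was 0.34 (SE 0.35, edgeR adjusted p = 0.586).

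Mavs and Irf3 went the other way, with their highest levels in controls 6 and 7. Ifih1 and Tbk1 were also highest there. The mean of controls 6 and 7 was 2.61 times control 5 for Mavs, 2.34 for Irf3, 1.82 for Ifih1 and 1.16 for Tbk1. Mavs (ENSMUSG00000037523, chromosome 2, 131234063 to 131248025) encodes the mitochondrial adaptor of RIG-I and MDA5. Its level was 36.0, 78.8 and 109 CPM in controls 5, 6 and 7, against 33.3, 27.7 and 35.5 CPM in GOX_DOX 1, 2 and 5. Every control lay above every GOX_DOX library, but control 5 exceeded GOX_DOX 5 by under 1 CPM. Means were 74.7 ± 36.8 and 32.2 ± 3.99 CPM (SD, n = 3 each), with a log2 fold change of -1.21 (SE 0.41). The unadjusted p was 0.0255 and the adjusted p 0.247 in edgeR's quasi-likelihood test, while DESeq2 gave an adjusted p of 0.0971. In the two-sided exact permutation test p was 0.1, the smallest that 3 libraries against 3 allow. Mavs was the 1 member of 9 whose groups did not overlap and that was lower, in a background of 8.31% of all 15374 genes. At an unadjusted p under 0.05, 14.6% of all genes were lower.

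Tbk1 (ENSMUSG00000020115, chromosome 10, 121546455 to 121586787) encodes the kinase that phosphorylates IRF3 downstream of STING, MAVS and TRIF. It had the narrowest spread of the group, with 41.7, 46.6 and 50.4 CPM in controls 5, 6 and 7, against 39.5, 44.4 and 39.5 CPM in GOX_DOX 1, 2 and 5. Controls 6 and 7 lay above all GOX_DOX libraries and control 5 within their range. The groups therefore overlapped, and the log2 fold change was -0.17 (SE 0.18, edgeR adjusted p = 0.599).

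Irf3 (ENSMUSG00000003184, chromosome 7, 44997648 to 45002848) encodes the transcription factor that TBK1 activates. Its level was 24.7, 53.7 and 62.1 CPM in controls 5, 6 and 7, against 30.2, 25.2 and 32.8 CPM in GOX_DOX 1, 2 and 5. Controls 6 and 7 exceeded all GOX_DOX libraries, whereas control 5 was the lowest of the 6. The log2 fold change was -0.67 (SE 0.37, edgeR adjusted p = 0.371). A small part of its exons, 2.56%, overlaps Bcl2l12 on the other strand, as 7.32% of Tlr3, 4.87% of Cgas and 4.31% of Dhx58 overlap other genes there. Whether strand was used in counting is not given in the sources used here.

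Over the 9 members kept, the median log2 fold change was 0.08, with 5 values above and 4 below 0, against a median of 0.02 over all genes kept. At an adjusted p under 0.05, edgeR called 0 of 9 members and 0 of 15374 genes, which is 0.0% of them. At an unadjusted p under 0.05 it gave 1 member, Mavs, and 17.5% of all genes. DESeq2 called 0 members, and 10.2% of the 14683 genes to which it gave an adjusted p (0.933% higher and 9.27% lower). Limma voom with sample quality weights called 6 of 9, with Cgas, Tmem173 and Tlr3 higher and Ifih1, Mavs and Irf3 lower, in a background of 29.2% of all genes higher and 30.9% lower, or 60.2% in all.

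Control 5 decided these results. Without it, edgeR called 5 of 9 members at an adjusted p under 0.05. Cgas rose with a log2 fold change of 1.62 (SE 0.32, edgeR adjusted p = 0.00624), Tmem173 with 1.60 (SE 0.30, edgeR adjusted p = 0.0046) and Tlr3 with 0.80 (SE 0.21, edgeR adjusted p = 0.0174). Mavs fell by 1.51 on the log2 scale (SE 0.21, edgeR adjusted p = 0.00118), and Irf3 fell by 0.94 (SE 0.19, edgeR adjusted p = 0.00586). In that comparison 22.2% of all 16249 genes were called higher and 25.5% lower, so that 47.7% were called in all. The share of members called was near that background. Without control 5 the groups did not overlap for 6 of 9 members and for 72.0% of all genes. When another library was left out, the count was 1 or 2 members, against 20.5% of genes without control 6, 19.1% without control 7, and 22.7%, 28.8% and 23.0% without GOX_DOX 1, 2 and 5. With other scalings it was 2 members and 17.6% of genes (library totals) or 0 members and 17.2% (upper quartile). With 2 controls left, both of them rich in hepatocyte RNA, treatment and hepatocyte content cannot be told apart in this fit.

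With control 5 as the lone control, 0 of 9 members and 0.0% of 16849 genes passed, and 4 members changed the sign of their fold change relative to the fit of all libraries. The values were -0.12 (SE 0.28) for Cgas, 0.10 (SE 0.26) for Tmem173, -0.24 (SE 0.20) for Tlr3, -0.15 (SE 0.23) for Mavs and 0.27 (SE 0.24) for Irf3. For each of these 5 genes the distance from 0 was less than 1.5 SE. This comparison rests on a lone control library that is assumed to vary like the GOX_DOX libraries. With the mean level of the hepatocyte markers as a covariate over all 6 libraries, the log2 fold changes shrank to -0.45 (SE 0.21) for Mavs and -0.01 (SE 0.20) for Irf3. Those of Cgas, Tmem173 and Tlr3 shrank as well, to 0.26 (SE 0.32), 0.36 (SE 0.27) and -0.04 (SE 0.21). The value of Ddx58 did not shrink, with 0.19 (SE 0.23). In that fit Dhx58 had the largest value among members, 0.86 (SE 0.35, edgeR adjusted p = 0.760).

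**Figure D2:**
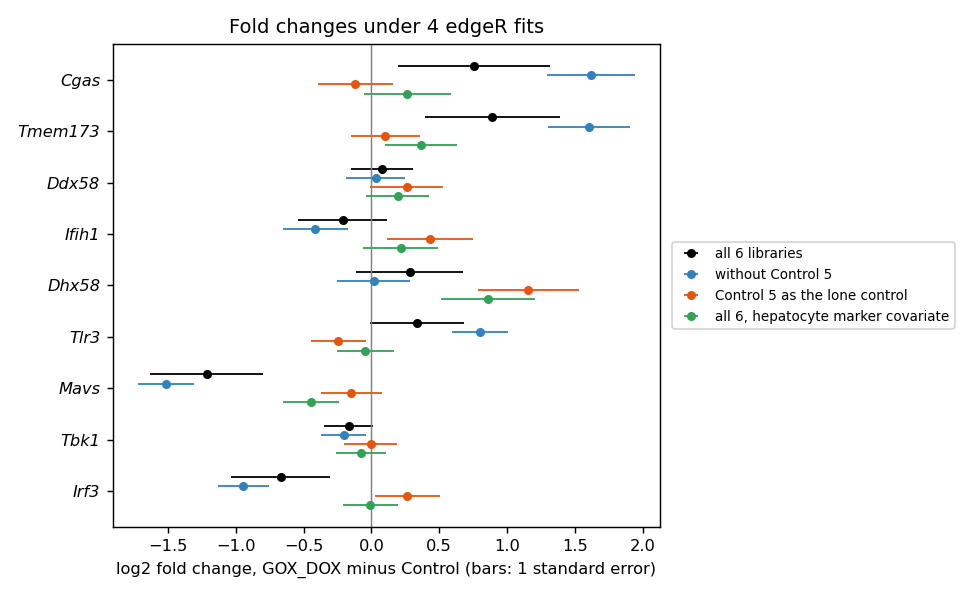
Log2 fold change (GOX_DOX minus Control) of each member with 1 standard error as bars, for edgeR fits of all 6 libraries, without control 5, with control 5 as the lone control, and of all 6 with a hepatocyte marker covariate. Cgas moved from 1.62 without control 5 to -0.12 against control 5 alone, and Mavs from -1.51 to -0.15, while Ddx58 and Tbk1 stayed within 0.3 of 0.

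Cell type markers differed between the same libraries as some of the members. The summed level of the 14 hepatocyte markers was lowest in control 5 and highest in controls 6 and 7, and the groups overlapped for each marker. All 6 endothelial markers were lower in GOX_DOX tumors without overlap (background 8.31% of all genes), with a summed level of 112, 294 and 329 CPM in controls 5, 6 and 7 and between 79.7 and 96.3 CPM in GOX_DOX libraries. Of 8 T cell markers, 7 were higher in GOX_DOX tumors without overlap (background 8.87%), and their summed level was 30.7–97.4 CPM in control and 129–192 CPM in GOX_DOX libraries. Of 12 macrophage markers, 5 were higher without overlap against the same background, and their sum was 864–1555 CPM in control and 1535–4106 CPM in GOX_DOX libraries. The Kupffer cell gene Clec4f, 1 of these 12, had a log2 fold change of -3.39 (SE 1.05), with overlapping groups. The sum of 8 dendritic cell markers was 141, 56.9 and 37.0 CPM in controls 5, 6 and 7 and 75.1–117 CPM in GOX_DOX libraries. Of these 8, 5 had a log2 fold change above 0 and 3 below. The sum of 7 fibroblast markers was 5737, 1748 and 1425 CPM in controls 5, 6 and 7 and 2197–6912 CPM in GOX_DOX libraries, with 4 values above 0 and 3 below. For Ddx58 all 3 controls lay within the GOX_DOX range. Control 5 was the lowest library for Dhx58, as it was for the hepatocyte sum. No marker of these lists was at 0 in any library. The part of these cell types in the members' levels was not tested.

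**Figure D3:**
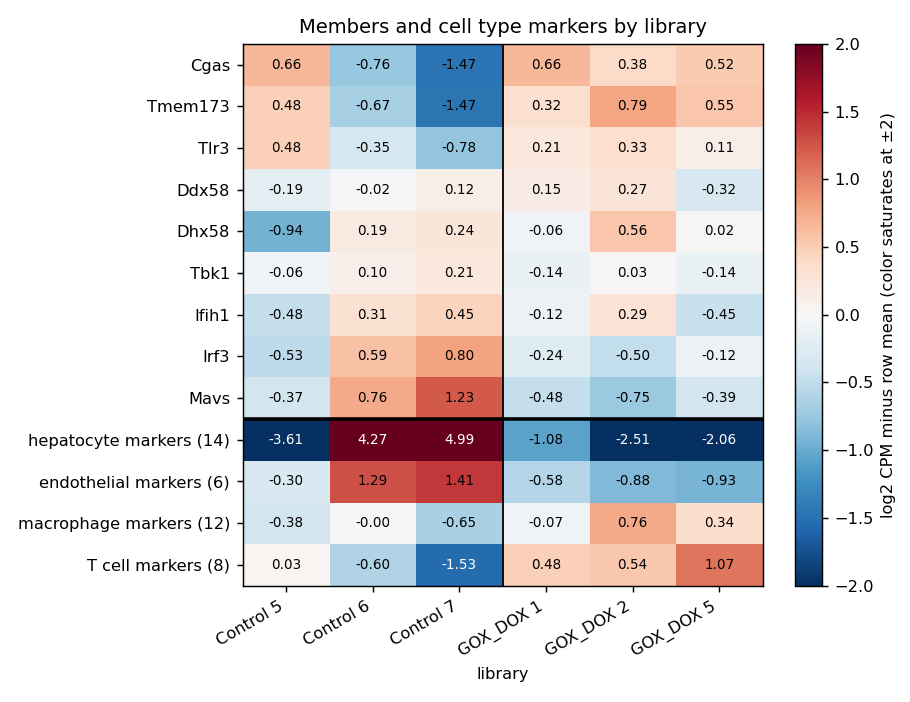
Log2 CPM minus the row mean in each library for the 9 members (top) and for the mean of 4 marker lists (bottom), with colors saturating at ±2. Mavs and Irf3, and by less Ifih1 and Tbk1, share their highest values with the hepatocyte and endothelial lists in controls 6 and 7. Cgas, Tmem173, Tlr3 and the T cell list are lowest in controls 6 and 7.

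Divided by exonic length, levels can be compared between genes. In GOX_DOX tumors Tbk1 had 10.5 ± 0.719, Tmem173 10.4 ± 1.70, Mavs 9.61 ± 1.19, Irf3 8.54 ± 1.12 and Ddx58 8.22 ± 1.67 CPM per kb (SD, n = 3), and these 5 neighbours lay within the spread of the next in order. Tlr3 followed with 7.01 ± 0.532, Ifih1 with 5.50 ± 1.43, Dhx58 with 3.61 ± 0.886 and Cgas with 2.40 ± 0.231 CPM per kb. In control tumors Mavs led with a mean of 22.3 CPM per kb and Cgas was again the lowest with 1.41 CPM per kb. By library, Cgas had the lowest level per kb of the 9 members in 5 libraries, and Dhx58 in control 5.

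Ratios of counts within a library do not depend on its scaling. Of the 36 pairs of members, 6 had ratios without overlap between the groups, in a background of 16.6% of all pairs of genes with counts in every library, a share close to that of the members. The tightest was Mavs over Irf3, with 1.46, 1.47 and 1.76 in controls 5, 6 and 7 and 1.10, 1.10 and 1.08 in GOX_DOX 1, 2 and 5. Control 5 went with the other controls in this ratio. The ratio of Dhx58 to Mavs was 0.149, 0.149 and 0.111 in the controls and 0.296, 0.546 and 0.295 in the GOX_DOX libraries, again with control 5 beside the other controls. These pairs were singled out after their values had been seen.

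Other genes of nucleic acid sensing were followed in lists by role. Of 19 other sensors, 17 had a log2 fold change above 0, the median was 0.77, and 8 were higher without overlap, in a background of 8.87% of all genes. DESeq2 called 4 of them higher, in a background of 0.933%, whereas edgeR called 0. The log2 fold changes and SEs of single genes in these lists are those of edgeR, also beside a DESeq2 adjusted p. Oas3, a synthase of the 2-5A messenger that activates RNase L, had 8.55, 11.3 and 4.30 CPM in control libraries, against 22.9, 36.2 and 20.7 CPM in GOX_DOX libraries (log2 fold change 1.72, SE 0.43, DESeq2 adjusted p = 0.00537). Zbp1, a sensor of Z-form nucleic acid, measured 28.0, 16.2 and 13.5 CPM in the control libraries and 50.3, 55.2 and 45.0 CPM in the GOX_DOX libraries (log2 fold change 1.38, SE 0.32, DESeq2 adjusted p = 0.00427). For both genes all 3 GOX_DOX libraries exceeded all 3 controls, control 5 included. Both were named for fold changes among the largest of their list over all 6 libraries, so that this placing was in part selected for. Oasl2, which had a log2 fold change of 1.40 (SE 0.36), and Oas1a, with 0.77 (SE 0.21), were the other two called by DESeq2. The lowest values in the list were -0.26 (SE 0.26) for Ddx41 and -0.03 (SE 0.34) for Dhx9, both helicases. The median of the list was 1.31 without control 5 and 0.25 against control 5 alone.

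Of 24 adaptors and regulators, 12 had values above and 12 below 0, and the median was 0.04. Irf7, the transcription factor that amplifies interferon production, measured 23.0, 39.9 and 41.2 CPM in the control libraries and 73.1, 89.6 and 44.5 CPM in the GOX_DOX libraries, a log2 fold change of 0.99 (SE 0.36, edgeR adjusted p = 0.252). The next highest were Nlrc3, a STING inhibitor, with 0.76 (SE 0.44) and Traf2, a ubiquitin ligase, with 0.59 (SE 0.34). Rnf125, a ubiquitin ligase that marks RIG-I for degradation, measured 9.13, 60.5 and 59.4 CPM in the control libraries and 5.04, 5.54 and 4.06 CPM in the GOX_DOX libraries. Its log2 fold change was -3.14 (SE 0.72), with an adjusted p of 0.00121 in DESeq2 and 0.247 in edgeR, and -0.89 against control 5 alone. Optn, with -1.02 (SE 0.39), and Rnf5, with -0.95 (SE 0.39), were lower in every GOX_DOX library than in controls 6 and 7, but not than in control 5. The list held 2 genes higher and 3 lower without overlap, where 8.87% and 8.31% of all genes were so placed, and the share of higher genes was near that background.

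Of 12 genes for the clearance of nucleic acid, 2 were higher without overlap, in a background of 8.87% of all genes, and the median was 0.05. Samhd1, which degrades dNTPs, measured 189, 96.5 and 65.0 CPM in the control libraries and 210, 292 and 270 CPM in the GOX_DOX libraries, a log2 fold change of 1.14 (SE 0.44, edgeR adjusted p = 0.268). Banf1, which coats DNA and competes with cGAS for it, had 0.47 (SE 0.23), and Adar, an RNA-editing enzyme, 0.33 (SE 0.29). Dnase1l3, a secreted DNase, measured 32.3, 120 and 145 CPM in the control libraries and 20.5, 11.9 and 37.7 CPM in the GOX_DOX libraries. Its log2 fold change was -2.08 (SE 0.68), DESeq2 gave it an adjusted p of 0.0407, and the groups overlapped through control 5. Rnaseh2c had -0.82 (SE 0.41) and Enpp1, which hydrolyses the STING ligand, -0.50 (SE 0.48).

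The interferon genes at the end of the pathway were hardly counted. Ifnb1, the gene IRF3 is best known to activate, had 0 counts in the 3 controls and 3, 1 and 2 counts in GOX_DOX 1, 2 and 5, at or under the 3 counts taken as the floor of a library, so that no fold is given. Ifna2 and Ifna9 had 1 count each in a single GOX_DOX library, Ifnl2 had 2 counts in another, and Ifna1, Ifna4, Ifna5, Ifna6, Ifna11, Ifna12 and Ifnl3 had 0 counts throughout. Differences among these 11 genes were not detectable at this depth.

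Their target genes had counts. Of the 10 kept, 9 had a log2 fold change above 0, and the median was 1.11. Without overlap, 6 were higher, in a background of 8.87% of all genes. DESeq2 called 5 of the 10 higher (Ifit1, Ifit3, Rsad2, Isg15 and Mx1), in a background of 0.933%. The edgeR test called 0 after adjustment but 6 higher at an unadjusted p under 0.05, in a background of 2.87% of all genes. Ifit1, which binds RNA lacking cap methylation, measured 20.0, 18.5 and 25.3 CPM in the control libraries and 93.2, 94.9 and 49.8 CPM in the GOX_DOX libraries (log2 fold change 1.90, SE 0.32, DESeq2 adjusted p = 0.000541). Its neighbour Ifit3 had 23.1, 26.3 and 30.5 CPM against 106, 124 and 59.6 CPM (log2 fold change 1.86, SE 0.32, DESeq2 adjusted p = 0.000739). Rsad2, which encodes the antiviral enzyme viperin, had 8.07, 14.5 and 12.8 CPM against 36.8, 28.7 and 27.3 CPM (log2 fold change 1.39, SE 0.29, DESeq2 adjusted p = 0.00261).

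In these 3 target genes control 5 lay below all GOX_DOX libraries together with the other controls. They were named for the largest fold changes of their list over all 6 libraries, so that this placing was in part selected for. Their list had a median that moved little between the choices of controls, with 1.19 without control 5 and 1.29 against control 5 alone. Mx2, the one kept target below 0, measured 3.73, 22.9 and 23.8 CPM in the control libraries and 11.4, 12.1 and 6.82 CPM in the GOX_DOX libraries (log2 fold change -0.73, SE 0.68). The T cell sum was higher in every GOX_DOX library than in every control, but highest in GOX_DOX 5, where Ifit1 and Ifit3 were lowest of the treated libraries. The macrophage sum overlapped, with 1555 CPM in control 5 and 1535 CPM in GOX_DOX 1. The part of these cells in the targets was not tested.

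Over 7 genes of interferon receptor signalling, the median log2 fold change was 0.04. Irf9 and Stat2, transcription factors downstream of the receptor, had values of 0.23 (SE 0.18) and 0.06 (SE 0.24). The receptor genes Ifnar1 and Ifnar2 had -0.07 (SE 0.22) and -0.34 (SE 0.30), and the receptor kinase Tyk2 -0.16 (SE 0.18). None of these 5 genes had an adjusted p under 0.05 in edgeR or DESeq2.

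**Figure D4:**
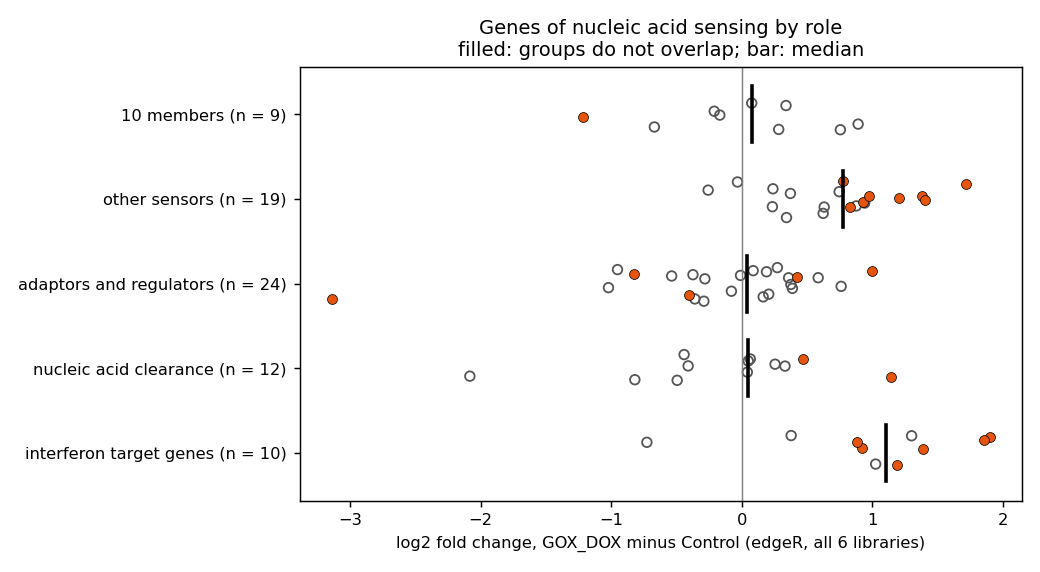
Log2 fold change (GOX_DOX minus Control, edgeR over all 6 libraries) of each kept gene by role, with the list's median as a bar and filled points for genes whose groups do not overlap. The medians of the other sensors (0.77) and the interferon targets (1.11) lie above those of the members (0.08), the adaptors (0.04) and the clearance genes (0.05).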

How the data were processed

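Tumor RNA from 3 control and 3 GOX_DOX mice was sequenced after mRNA library preparation. The authors deposited raw counts per gene, without normalization or pooling, and signal values that equal the raw count over a library-specific size factor (0.532 to 1.32). The submitters' processing notes list CASAVA, FastQC, MultiQC, Trimmomatic 0.38, HISAT2 2.1.0 and featureCounts 2.0.0, whereas the study's methods name TopHat and HTSeq. Genome build, annotation release and strand setting are not given in the sources used here. Only the raw counts were tested, and all 55536 identifiers were found in GENCODE M21 (GRCm38), which gave positions, lengths and overlaps.

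Counts were filtered with filterByExpr, scaled by TMM and tested with edgeR 4.0.16 (R 4.3.3) in 1 quasi-likelihood model of the 6 libraries with group as its single term. P-values were adjusted by Benjamini-Hochberg over all genes kept, with a threshold of 0.05. Alternatives were DESeq2 1.42.0, limma 3.58.1 voom with quality weights, other scalings and filters, a hepatocyte marker covariate and leaving out each library. The use of control 5 as the lone control was added after values had been seen. Exact permutation tests used log2(CPM + 1) and were two-sided. The members and gene lists were chosen with earlier results of these data known. Named genes were all members and, in each list, the 3 largest values above and below 0 (fewer where a list held fewer), plus Ifnb1 and Irf7. One further gene under this rule was left out of the text. Oas1a, Isg15 and Mx1 are named outside that rule, after their values were seen. On simulated counts with 200 changed genes (log2 fold change 2, dispersion 0.157, 15076 genes), edgeR recovered 126 with 2 false calls and DESeq2 143 with 18 false calls. The simulated libraries of a group shared a common mean and dispersion, unlike the divided controls here. These counts therefore do not give the power or error rate of the comparison above. Apart from the separate mice, nothing in the labels describes replication, and p-values measure the spread between these libraries.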

Additional observations from a re-analysis of the deposited data

How the results depend on the processing

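Across all genes, the count of calls at an adjusted p under 0.05 moved from 0 with edgeR to 1498 with DESeq2 and 9254 with limma voom with sample quality weights, and ranged from 0 to 7745 when each library was left out. Among members it moved from 0 to 6 with the quality weights, where 60.2% of all genes were called, and ranged from 0 to 5 when each library was left out, with 5 only without control 5. The number of members without overlap was 1 with TMM, 2 with library totals and 0 with upper quartile scaling, and ranged from 1 to 6 over the fits that leave out a library, with 6 without control 5 (where 72.0% of all genes did not overlap) and 2 without any 1 of the GOX_DOX libraries. Library totals and upper quartile scaling shifted the median log2 fold change of all genes to 0.51 and 0.19.

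Signs changed for the following log2 fold changes. With library totals they were 0.43 for Ifih1, 0.39 for Tbk1 and 0.0265 for Irf3, and relative to the shifted median all 3 were below 0 again (-0.07, -0.12 and -0.48). With upper quartile scaling Tbk1 was at 0.0188. With the hepatocyte covariate Ifih1 was at 0.21 and Tlr3 at -0.0439. With quality weights Dhx58 was at -0.14. Over the fits that leave out a library, Ddx58 ranged from -0.0232 (without GOX_DOX 2) to 0.280. Against control 5 alone, Cgas was at -0.12, Ifih1 at 0.43, Irf3 at 0.27 and Tlr3 at -0.24. Mavs and Tmem173 kept their sign under each alternative run, with adjusted p-values from 0.000819 to 0.937 and from 0.00445 to 0.964 (edgeR, DESeq2 or limma). The cause of these changes was not tested. No paired analysis was possible because the groups share fewer than 2 replicate numbers (the number 5 alone). With 3 libraries a group, and a control group that is spread widely, absence of a call does not show that a member was unaffected.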
